A study of Rattus norvegicus with 6 samples.

Results

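Astrocytes are the glial cells that surround synapses and blood vessels. They take up glutamate and GABA, buffer potassium and water, share small molecules through gap junctions, and supply lipids and lactate to neurons. After injury they are known to raise the intermediate filament protein Gfap and to change many of these functions. The barcodes described here were chosen by transcripts of 6 astrocyte genes. These are the glutamate transporters Slc1a2 and Slc1a3, the gap junction protein Gja1, the water channel Aqp4, the neurotensin receptor Ntsr2 and the folate enzyme Aldh1l1. A barcode was a member when it held at least 1 UMI (a counted transcript molecule) of at least 3 of the 6 genes. It also had to hold no UMI of Olig1 or Olig2 and fewer than 40 UMIs of C1qa, C1qb and C1qc per 10000. The rule found 601 members among 38685 kept barcodes, 99 in infarction libraries and 502 in sham libraries. Because these counts chose the members, the levels of those genes are given as a description only.

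Transcript 3′ ends of single brain cells were counted in 6 droplet libraries from rats of the Sprague Dawley strain. The infarction group has 3 libraries from rats with a pontine infarction, a stroke of the pons in the brainstem, and the sham group has 3 from sham rats. All 6 carry an age label of postnatal day 21, and the interval after surgery is not given in the sources used here. Libraries are numbered 1 to 3 within each group and no animals are named, so p-values measure only the spread between libraries, and that spread may be technical.

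There were 44011 deposited barcodes in all, and total UMIs per library lay between 56416475 and 69924334. The members' summed UMIs were 137806, 242317 and 321506 in infarction 1 to 3, against 540193, 1000508 and 1960535 in sham 1 to 3. Each member held a median of 11085, 4410.5 and 2299 UMIs in infarction 1 to 3, against 4343, 4819 and 4644 in sham 1 to 3. Between 7 and 18 kept barcodes were shared by any pair of libraries, and no member barcode was.

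The label was checked against markers of other cell types, which many members also carried. A member was counted as marked when it held at least 3 of 7 ependymal genes, or at least 100 UMIs per 10000 of another cell type's list. This check was set after the data had been seen. It marked 9 of 11, 16 of 36 and 22 of 52 members in infarction 1 to 3, against 16 of 89, 37 of 83 and 55 of 330 in sham 1 to 3. Ependymal genes, which belong to the ciliated cells lining the ventricles, marked 22 infarction members and 55 sham members. Smooth muscle genes marked 0 infarction members and 42 sham members. Choroid plexus genes marked 0 infarction members and 25 sham members, and macrophage and monocyte genes marked 19 infarction members and 1 sham member. Summed over all 10 macrophage and monocyte genes, the level was 1190, 17044 and 25940 CPM in infarction 1 to 3, against 163, 150 and 541 CPM in sham 1 to 3. CPM are UMIs of a gene per 1000000 UMIs of the summed barcodes. The smooth muscle list of 8 genes summed to 43.5, 33.0 and 49.8 CPM in infarction 1 to 3, against 7875, 4375 and 9496 CPM in sham 1 to 3. The microglia list of 8 genes summed to 65.3, 169 and 255 CPM in infarction 1 to 3, against 96.3, 90.0 and 111 CPM in sham 1 to 3. Of its genes 3, 4 and 5 were detected in infarction 1 to 3, against 5, 6 and 7 in sham 1 to 3. Siglech was at 0 in all 6 libraries. Marked barcodes held 95.9%, 80.2% and 79.6% of the members' UMIs in infarction 1 to 3, against 43.0%, 77.4% and 33.7% in sham 1 to 3. Without marked members, 2, 20 and 30 remained in infarction 1 to 3, against 73, 46 and 275 in sham 1 to 3. These unmarked members summed to 5619, 47949 and 65492 UMIs in infarction 1 to 3, against 308031, 226556 and 1299355 in sham 1 to 3.

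Most members passed the rule by the same 3 genes, since 583 of 601 held Slc1a3, Gja1 and Aqp4 together. Slc1a2, the main glutamate transporter of forebrain astrocytes, was found in 0%, 0% and 13.5% of members in infarction 1 to 3, against 56.2%, 49.4% and 46.1% in sham 1 to 3. At least 4 of the 6 genes were present in 10 of 99 infarction members and in 298 of 502 sham members. Just outside the rule lay 134 infarction and 231 sham barcodes with exactly 2 of the genes. A further 29 infarction and 445 sham barcodes had at least 3 of the genes and were dropped for a UMI of Olig1 or Olig2. The dropped sham barcodes held Agt, the angiotensin precursor, at 7627, 6487 and 7550 CPM in sham 1 to 3. Agt stood at 6198, 2107 and 4770 CPM in all sham members and at 10359, 7296 and 6870 CPM in unmarked ones. Gdf10, a ligand of the BMP family, was at 0, 0 and 8.15 CPM in the dropped barcodes of sham 1 to 3 and at 62.9, 143 and 293 CPM in the members. Pdgfra, which marks oligodendrocyte precursors, was at 21.3, 15.5 and 12.9 CPM in the dropped barcodes of sham 1 to 3. It was at 62.9, 82.0 and 0 CPM in all members and at 0 in unmarked members of all 3 libraries. Cspg4, another gene of those precursors, was at 59.0, 58.5 and 84.9 CPM in the dropped barcodes. It was at 53.7, 52.0 and 80.1 CPM in all members and at 9.74, 13.2 and 35.4 CPM in unmarked ones. Both genes belong to the lists used to mark members.

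The promoters of 2 genes are shown because the results turn on them, Gfap for its level after infarction and Gja1 as a gene of the rule. Both come from RefSeq on GRCr8 and run from 250 bases before the start of transcription to 50 after it. Capitals mark a match to any of 5 motifs searched on both strands. The STAT motif was TTCNNNGAA and the AP-1 motif was TGANTCA, both of them palindromes. The NFI motif was searched as its core of 6 letters, TTGGCA. For SOX factors the letters were ACAAAG, and for the TATA box they were TATAAA.
Gfap, chr10:88361612-88361911, minus strand: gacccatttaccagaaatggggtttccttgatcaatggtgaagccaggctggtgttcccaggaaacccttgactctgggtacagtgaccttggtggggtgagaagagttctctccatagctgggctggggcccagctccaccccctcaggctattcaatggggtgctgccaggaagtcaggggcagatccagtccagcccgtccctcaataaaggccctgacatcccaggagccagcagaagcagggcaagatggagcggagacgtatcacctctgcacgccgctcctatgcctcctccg
Gja1, chr20:36302314-36302613, plus strand: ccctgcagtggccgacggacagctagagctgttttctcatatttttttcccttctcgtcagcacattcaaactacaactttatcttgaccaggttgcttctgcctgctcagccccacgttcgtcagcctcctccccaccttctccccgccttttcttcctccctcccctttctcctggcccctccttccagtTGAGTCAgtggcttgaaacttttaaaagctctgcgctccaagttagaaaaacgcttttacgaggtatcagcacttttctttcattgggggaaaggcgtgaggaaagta
The Gja1 window held 1 AP-1 match, which begins at base 193 of the window, and the Gfap window held none of the 5 motifs. Of 33469 promoters of the same length, 8.87% held the STAT letters, 7.33% AP-1, 14.0% NFI, 18.8% SOX and 14.2% TATA. A match or its absence describes the letters of these windows only.

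In sham libraries the unmarked members carried a broad set of astrocyte transcripts above the other barcodes. Of 30 identity genes outside the rule, 27 were over 2-fold higher in unmarked members than in all other kept sham barcodes in each of the 3 libraries. Over all 14812 genes detected, 1538 (10.4%) were higher by that measure and 1237 (8.35%) lower. The rule chose the cells, so these contrasts have no test. The identity genes had a median log2 ratio of 3.87 over the other barcodes, beside 0.05 for all genes. Counts and levels that follow are those of unmarked members unless all members are named, set against the other kept barcodes of the same libraries.

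Uptake and metabolism of transmitters ran through several carriers, and 13 of 14 genes of that list were higher in all 3 libraries. Slc6a9, a glycine transporter that is prominent in brainstem glia, stood at 1286, 940 and 916 CPM in unmarked members of sham 1 to 3, against 41.8, 34.04 and 61.3 CPM in the other barcodes. Slc6a11, the GABA transporter GAT-3, stood at 84.4, 39.7 and 55.4 CPM, against 1.12, 0.698 and 2.26 CPM. Glutamine synthetase, Glul, stood at 1529, 1624 and 1692 CPM, against 118, 130 and 199 CPM. In each of these 3 genes the lowest unmarked value lay above the highest value of the other barcodes.

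Ion and water genes were mostly enriched, 11 of 17. The sodium bicarbonate cotransporter Slc4a4 stood at 1701, 1766 and 1765 CPM in unmarked members of sham 1 to 3, against 23.5, 12.8 and 37.6 CPM in the other barcodes. Mlc1, a membrane protein of perivascular endfeet, stood at 1221, 1086 and 1221 CPM, against 18.2, 9.63 and 34.02 CPM. The potassium channel Kcnj10 was low, at 9.74, 22.1 and 5.39 CPM, against 0.209, 0.186 and 0.605 CPM. Its partner Kcnj16 stood at 218, 141 and 115 CPM, against 2.95, 1.88 and 5.25 CPM.

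Junction genes were higher for 9 of 12, among them Gjb6 (connexin 30) at 782, 587 and 534 CPM in unmarked members, against 11.0, 6.05 and 22.8 CPM in the other barcodes. Among lipid genes, 13 of 20 were higher, and Apoe, the carrier of brain lipids, stood at 24215, 17960 and 16472 CPM, against 1708, 1484 and 2082 CPM. Lpl, a lipoprotein lipase, was lower, at 9.74, 22.1 and 9.24 CPM, against 156, 135 and 109 CPM. Aldoc, the glycolytic aldolase of astrocytes, stood at 4305, 3540 and 4306 CPM, against 92.7, 58.7 and 165 CPM. Ldha was lower, at 25.97, 39.7 and 44.6 CPM, against 371, 354 and 348 CPM, while Ldhb stood at 1026, 936 and 970 CPM, against 345, 483 and 225 CPM. Ldha and Ldhb encode the subunits of lactate dehydrogenase, and they lay on opposite sides of the other barcodes.

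Receptors and secreted proteins followed. The endothelin receptor Ednrb stood at 2117, 2264 and 2533 CPM in unmarked members, against 46.0, 54.4 and 45.4 CPM in the other barcodes. Ntrk2, the receptor for BDNF, stood at 1500, 1227 and 1283 CPM, against 132, 135 and 125 CPM. The NMDA receptor subunit Grin2c stood at 552, 415 and 479 CPM, against 6.44, 3.78 and 17.8 CPM. In all, 17 of 25 receptor genes were over 2-fold higher in each library. Among secreted proteins, Itih3, a hyaluronan-binding protein, stood at 4227, 3394 and 3923 CPM, against 54.5, 34.1 and 134 CPM. Vegfa, the vascular growth factor, stood at 1214, 1011 and 884 CPM, against 43.3, 47.7 and 48.3 CPM.

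Beyond the lists, the 20 genes with the highest ratio over the other sham barcodes were ordered by all members. Among them were Lgi4, Slc4a4, Agt, Mlc1, Itih3, Gpr37l1, Btbd17, Ttyh1, Hcrt, Col11a2, Ednrb, Slc25a18, Ccdc153, Gdf10, Etnppl, Aldoc, Adam11 and Grin2c. Lgi4, a secreted ligand known from peripheral glia, stood at 576, 317 and 1097 CPM in all members, against 11.6, 6.78 and 23.6 CPM in the other barcodes. Hcrt, the orexin precursor, and Ccdc153, a cilium gene, were found mainly in marked members. Hcrt was at 0, 26.5 and 2.31 CPM in unmarked members of sham 1 to 3 and at 24.1, 394 and 348 CPM in all members. Ccdc153 was at 3.25, 0 and 3.85 CPM in unmarked members and at 107, 157 and 291 CPM in all members.

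**Figure D1:**
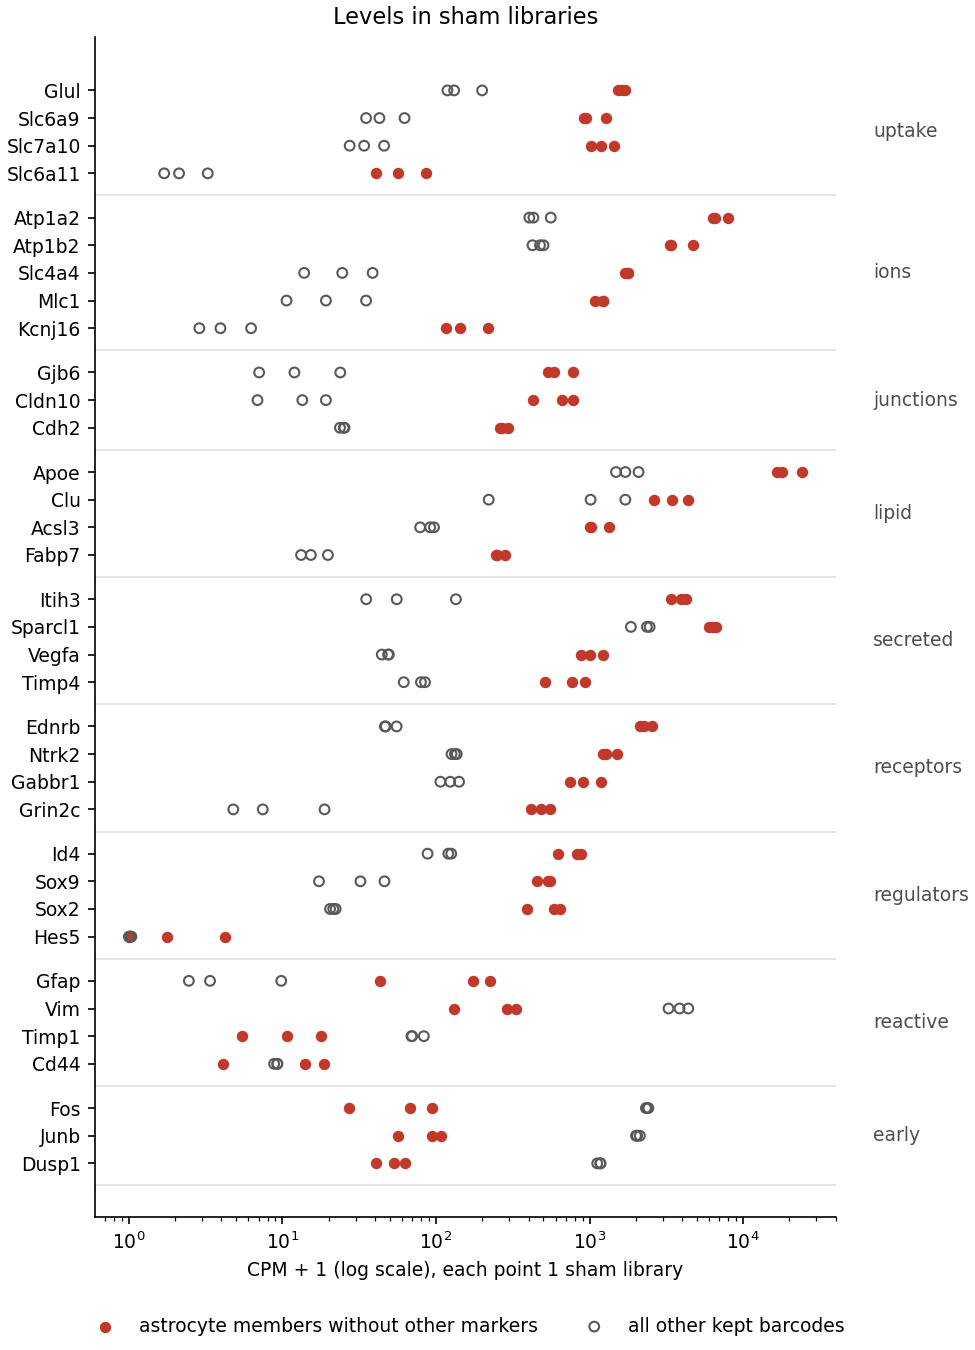
Levels of genes in the 3 sham libraries, as CPM + 1 on a log axis, for unmarked astrocyte members (filled points) and all other kept barcodes (open points), grouped by role. Uptake, ion, junction and receptor genes lie to the right in members, while Vim, Timp1 and the immediate early genes Fos, Junb and Dusp1 lie to the left.

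Of 12 pan-reactive genes in sham members, 1 was over 2-fold higher than in the other barcodes in all 3 libraries and 5 were over 2-fold lower. Of 11 A1-type genes 5 were lower, of 12 A2-type genes 2 were lower, and none of either list was higher. Gfap (ENSRNOG00000002919) stood at 42.2, 172 and 225 CPM in unmarked members of sham 1 to 3, against 2.38, 1.46 and 8.82 CPM in the other barcodes. The filament protein Vim stood at 130, 331 and 289 CPM, against 4387, 3262 and 3848 CPM. After thinning every barcode to 1000 UMIs, Gfap was found in 3.45%, 12.05% and 11.6% of all members of sham 1 to 3, in 2.74%, 6.52% and 13.8% of unmarked members, and in 0.772%, 0.357% and 1.26% of microglial barcodes, which should lack it. Before thinning it was found in 11.2%, 28.9% and 35.8% of all members, with medians of 4343, 4819 and 4644 UMIs, beside medians of 5277, 5750 and 5468 UMIs in microglial barcodes. Thinning left out 2, 0 and 12 shallow members. Of 17 immediate early genes measured, 15 were over 2-fold lower than in the other barcodes. Fos, a transcription factor induced within minutes by cell stimulation, stood at 25.97, 92.7 and 67.0 CPM in unmarked members, against 2325, 2376 and 2411 CPM in the other barcodes. Of 16 proliferation genes, none was over 2-fold higher.

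Of 8 forebrain region genes, 6 were at 0 in unmarked sham members. Of the 14812 genes detected in sham members, 1356 were at 0 in unmarked ones. Unlike the lists, that set leaves out genes with no UMI in any sham member. Among hindbrain and spinal genes, 9 of 20 were at 0. The homeobox genes Irx5, at 45.5, 79.5 and 58.5 CPM in unmarked members against 2.97, 3.06 and 4.49 CPM in the other barcodes, and Irx3, at 32.5, 30.9 and 40.02 CPM against 2.60, 2.02 and 4.37 CPM, were among those detected. En2, a factor of the midbrain and hindbrain border, stood at 25.97, 35.3 and 40.8 CPM, against 0.931, 0.915 and 4.23 CPM. The regulators Sox9 and Sox2, which maintain glial identity, stood at 552, 455 and 533 CPM and at 390, 636 and 586 CPM. Hes5, a Notch target, was at 3.25, 0 and 0.770 CPM in unmarked members, against 0.0190, 0 and 0.0390 CPM in the other barcodes.

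Sham members fell into 7 subclusters, and the libraries filled them unequally. A test of cluster sizes was not made, since other differences between the libraries cannot be told apart from cell type. Median UMIs per member were similar, at 4343, 4819 and 4644 in sham 1 to 3. Subcluster 1 (36 members) was ependymal-like, with Dynlrb2 and Ccdc153, both genes of cilia, at 2493 and 1691 CPM. All 36 of its members were marked. Subcluster 3 (45 members) was led by Acta2 and Tagln, contractile genes of smooth muscle, and 22 of its members had a doublet score above 0.25. Subcluster 5 (10 members) was choroid plexus-like, with Ttr, the thyroxine carrier made by that tissue, at 229466 CPM. Its members held a median of 70839 UMIs.

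The other 4 subclusters held fewer marked members, 14 in subcluster 2, 2 in subcluster 4, 1 in subcluster 6 and 4 in subcluster 7. Subcluster 2 (121 members) was led by Etnppl, an enzyme of phosphoethanolamine breakdown, Pla2g7 and Cldn10. It held 70, 46 and 5 members of sham 1 to 3. Subclusters 6 (98 members) and 7 (101 members) came from sham 3 in 96 and 98 members. Subcluster 6 was led by Col11a2 and Col16a1, both collagen chains, and subcluster 7 by Grifin and Agt. Agt (ENSRNOG00000018445) was at 12603 CPM in subcluster 7, 9985 CPM in subcluster 2 and 6562 CPM in subcluster 6.

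Subcluster 4 (91 members) stood apart by Gria4 and Gdf10, which are known from mouse Bergmann glia of the cerebellum. Gria4, an AMPA receptor subunit, was at 1984 CPM in it and at 1.47 to 90.9 CPM in the other 6. Gdf10 (ENSRNOG00000051993) was at 1237 CPM, against 0 to 70.3 CPM in the other 6. The matrix protein Tnc was at 758 CPM, and the ETS factor Etv5 at 439 CPM. Slc1a3 reached 12811 CPM in subcluster 4, while Gja1 was at 1470 CPM there and between 5999.8 and 6670.5 CPM in subclusters 2, 6 and 7. Gfap was found at 439 CPM in subcluster 4, against 21.1, 104 and 105 CPM in subclusters 2, 6 and 7. In sham 2 it was higher in ependymal-like subcluster 1, at 744 CPM in 9 members, than in subcluster 4, at 517 CPM. In sham 3 it was at 41.5 CPM in subcluster 1 and at 423 CPM in subcluster 4. Members of subcluster 4 came from sham 3 in 79 cases, from sham 2 in 9 and from sham 1 in 3. Since the clusters were drawn on these genes, the levels are a description.

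**Figure D2:**
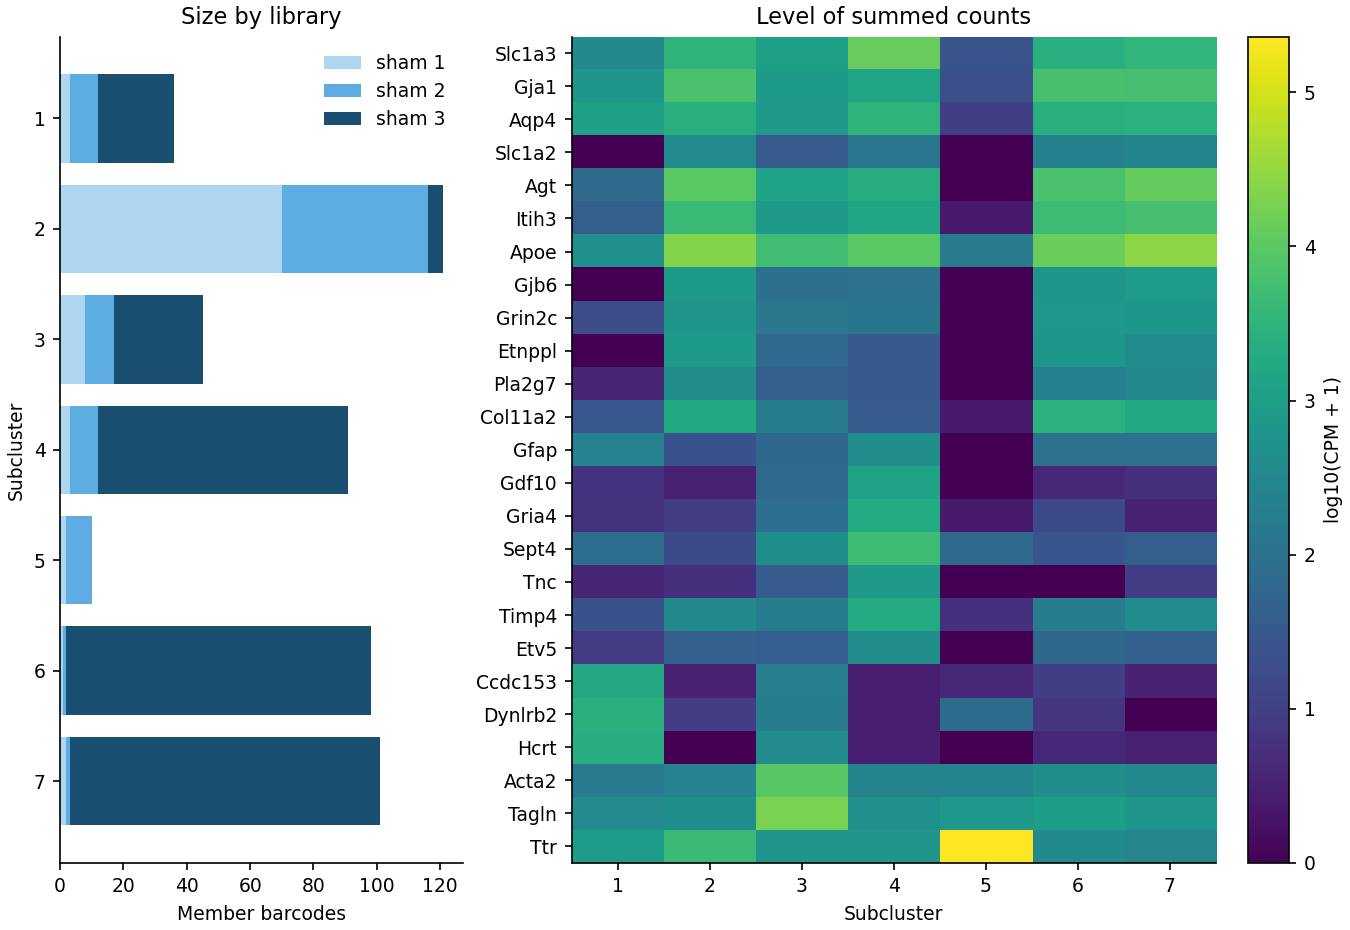
The left panel gives the number of sham member barcodes in each of 7 subclusters by library, and the right panel the log10 of CPM + 1 of 25 genes in the summed counts of each subcluster. Subclusters 6 and 7 come almost wholly from sham 3, and Gdf10, Gria4 and Tnc peak in subcluster 4.

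The comparison of Gfap-high with Gfap-low sham members asked which genes vary with detection of Gfap. Gfap-high members held at least 1 Gfap UMI and Gfap-low members held none, so the split does not grade the level of Gfap. Sham 1 had 10 members with a Gfap UMI and was left out, so the fit rests on 24 Gfap-high against 59 Gfap-low members in sham 2 and 118 against 212 in sham 3. Gfap-high members were deeper, with medians of 7597 against 4258 UMIs in sham 2 and 5434 against 4355.5 UMIs in sham 3. In sham 2, 41.7% of Gfap-high and 13.6% of Gfap-low members carried ependymal markers, and in sham 3 7.63% and 10.4%. With edgeR's quasi-likelihood test, none of 8243 genes other than Gfap was called at an adjusted p under 0.05, which is 0.0% of genes tested. At an unadjusted p under 0.05, 419 genes passed, which is 5.08% of those tested, and DESeq2 called 11 higher and 2 lower.

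Gdf10 was among the genes with the smallest p, averaging 608 CPM in Gfap-high and 33.2 CPM in Gfap-low members. Its log2 difference was 4.30 ± 0.52, with an adjusted p of 0.151 by edgeR. The ± beside a log2 difference is derived from the test statistic and is not a spread between libraries. CPM of Gfap-high and Gfap-low members are scaled by the normalization factors of the fit. Gria1 averaged 159 CPM in Gfap-high and 13.5 CPM in Gfap-low members (log2 3.63 ± 0.50). Timp4, a metalloproteinase inhibitor, averaged 890 CPM in Gfap-high and 183 CPM in Gfap-low members. These genes also led subcluster 4. Of 9 Bergmann glia genes tested, 7 were higher in Gfap-high members of both libraries, beside 24.3% of all genes, and the median log2 difference of the list was 1.98, beside -0.04 for all genes. Vat1l and Htr2c, which are high in choroid plexus, also had small p and were not called. Vat1l stood at 22.7 CPM in Gfap-high and 1483 CPM in Gfap-low members of sham 2, and at 0 and 0.842 CPM in sham 3. Sham 2 held 8 of the 10 choroid plexus-like barcodes and sham 3 none.

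Astrocyte members made up a smaller share of kept barcodes after infarction. The share was 0.184%, 0.486% and 0.857% in infarction 1 to 3, against 1.48%, 1.28% and 4.90% in sham 1 to 3. The groups did not overlap. The mean was 0.509% ± 0.337 in infarction and 2.55% ± 2.04 in sham libraries (SD, n = 3 each). An exact two-sided permutation test gave p = 0.1, the smallest value that 20 assignments of 6 libraries can give. Sham 3 set much of the difference, which was -2.04 percentage points with it and -0.869 without it. After thinning to 1000 UMIs the shares were 0.0173%, 0.101% and 0.418% in infarction 1 to 3, against 2.08%, 1.52% and 5.27% in sham 1 to 3. Fewer astrocytes, more barcodes of other cells and less astrocyte RNA per barcode cannot be told apart here. The value is a share of kept barcodes, and the rule needs transcripts to be found. Counting error alone gave exact Clopper-Pearson 95% intervals of 0.641% to 1.12% for infarction 3, the highest infarction library, and of 1.021% to 1.58% for sham 2, the lowest sham library.

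**Figure D3:**
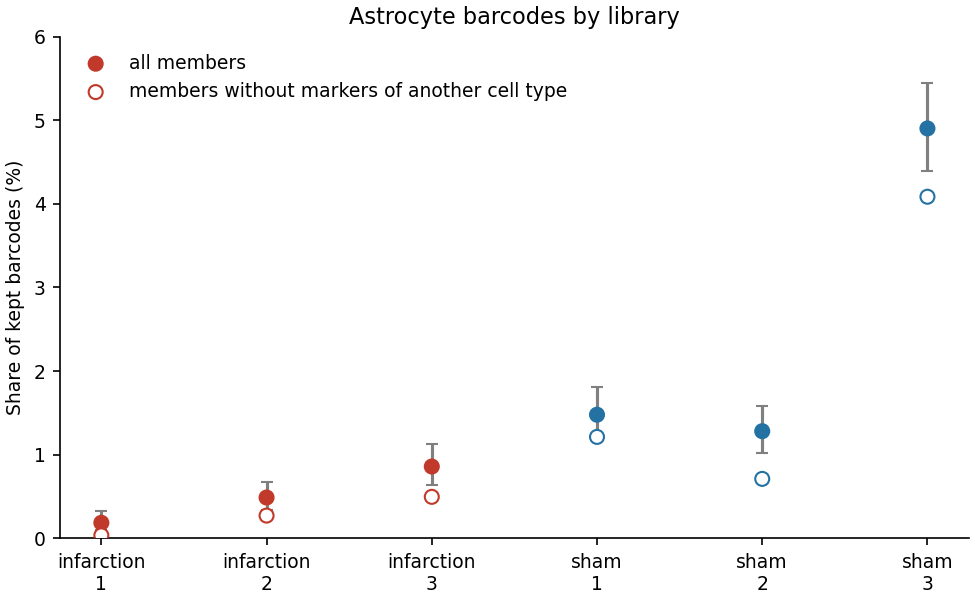
Share of kept barcodes that met the astrocyte rule in each library, for all members (filled, with exact Clopper-Pearson 95% intervals) and for unmarked members (open). The 3 infarction libraries sit between 0.184% and 0.857%, all below the sham libraries.

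The comparison of infarction with sham within members asked how their expression differed. Since most UMIs of infarction members came from marked barcodes, values without marked members are given beside it. That fit holds infarction 2 and 3 against sham 1 to 3, because infarction 1 kept 2 unmarked barcodes and was left out. It was not free of other cell types' markers. There, 5 of 5 tested macrophage and monocyte genes were higher, with a median log2 difference of 5.46. Of mature oligodendrocyte genes 3 of 3 were higher, as was the 1 endothelial gene tested, and 2 of 4 smooth muscle genes were lower. None of 3 microglia or 3 neuron genes was called. Gfap stood at 2402, 2583 and 1468 CPM in infarction 1 to 3, against 66.6, 113 and 165 CPM in sham 1 to 3. Every infarction value lay above every sham value, and the log2 difference was 4.33 ± 0.46 with an adjusted p of 0.00361 by edgeR. Among unmarked members it stood at 11924, 5756 and 5940 CPM in infarction 1 to 3, against 42.2, 172 and 225 CPM in sham 1 to 3. The infarction 1 value there rests on 67 Gfap UMIs in 2 barcodes. After thinning to 1000 UMIs, Gfap was found in 4 of 10, 8 of 27 and 24 of 45 members of infarction 1 to 3 and in 1.82%, 4.23% and 3.07% of their microglial barcodes. In the other kept barcodes Gfap stood at 15.4, 25.98 and 27.3 CPM in infarction 1 to 3, against 2.38, 1.46 and 8.82 CPM in sham 1 to 3, and these groups did not overlap either. Of 17 other ways to run the fit, Gfap was called in 15, with log2 differences between 2.77 and 5.85 over all 17. The exceptions were members with at least 4 of 6 markers, where infarction 3 alone remained, and leaving out infarction 2.

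Over all 5936 genes tested, edgeR called 421 higher (7.09%) and 365 lower (6.15%) after infarction, and 37.3% of genes had groups that did not overlap. These counts depend on single libraries. By DESeq2 they were 583 and 468. Without infarction 2 edgeR called 0 and 0, with 1707 genes at an unadjusted p under 0.05, and without sham 1 they were 3 and 18. They were 764 and 354 without infarction 1, 263 and 215 without infarction 3, 137 and 324 without sham 2, and 79 and 162 without sham 3. Without marked members, 159 (3.65%) and 62 (1.42%) of 4354 genes were called. Of the 786 genes called in all members, 568 were tested there and 140 were called in the same direction.

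The identity list had 13 lower and 2 higher genes of 28 tested, with a median log2 difference of -1.80, beside -0.02 for all genes tested. The 2 higher genes were Gfap and Cpe, a prohormone-processing enzyme, which stood at 965, 986 and 694 CPM in infarction 1 to 3, against 444, 353 and 386 CPM in sham 1 to 3. Gjb6 fell to 0, 16.5 and 34.2 CPM in infarction 1 to 3, against 470, 169 and 370 CPM in sham 1 to 3 (log2 -3.93 ± 0.69, adjusted p 0.0177 by edgeR). Slc4a4 fell to 94.3, 132 and 180 CPM, against 1042, 474 and 1229 CPM (log2 -2.59 ± 0.47, adjusted p 0.0187). Ednrb fell to 189, 243 and 199 CPM, against 1301, 701 and 1761 CPM. All 3 genes were also called without marked members, at log2 -2.90, -2.05 and -1.89. None of the 3 was called without infarction 2, without sham 1 or with library number as a block.

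Other homeostatic groups moved the same way in part. Of all genes tested in members, 6.15% were lower and 7.09% higher. Of 13 ion and water genes tested 8 were lower, and of 9 junction genes 5 were lower and 1, the integrin subunit Itgb4, was higher. Of 13 uptake genes, 2 were lower. Slc6a9 fell to 50.8, 94.9 and 109 CPM in infarction 1 to 3, against 783, 303 and 656 CPM in sham 1 to 3. Of 14 glycogen and glycolysis genes 5 were lower, among them Pygm, the muscle form of glycogen phosphorylase, at 0, 33.0 and 31.1 CPM in infarction 1 to 3, against 272, 146 and 317 CPM in sham 1 to 3. Of 20 lipid genes 6 were lower and 1, the fatty acid binding protein Fabp5, was higher. Acsl6, which activates long-chain fatty acids, fell to 79.8, 74.3 and 118 CPM, against 872, 501 and 657 CPM. Mfge8, a secreted phagocytic bridge, fell to 21.8, 111 and 87.1 CPM, against 1126, 677 and 826 CPM. It was also high in the other sham barcodes, with means of 46.5 CPM in infarction and 1298.5 CPM in sham libraries. Without marked members, 9 of 29 identity genes were lower and 2 higher, and 2 of 14 uptake genes were lower and 1 higher. There, 2 of 14 ion and water genes and 2 of 9 junction genes were lower and none higher. Of 14 glycolysis genes 1 was lower and 1 higher, and of 19 lipid genes 1 was lower and 1 higher. Over all 4354 genes tested without marked members, 1.42% were lower and 3.65% higher.

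The levels of the genes of the rule are given without a test. Slc1a2 was at 0, 0 and 37.3 CPM in infarction 1 to 3, against 218, 81.0 and 138 CPM in sham 1 to 3. Aqp4 was at 1967, 1193 and 933 CPM, against 1649, 934 and 2099 CPM, where the groups overlap. Outside the rule, Apoe was at 2148, 11221 and 15972 CPM in infarction 1 to 3, against 15404, 5378 and 11771 CPM in sham 1 to 3, and its groups also overlapped. Agt was lower after infarction, with a log2 difference of -3.27 ± 0.66 and an adjusted p of 0.0241 by edgeR.

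Among reactive genes, 3 of 4 tested pan-reactive genes were higher, beside 7.09% of all genes. Besides Gfap they were Vim, at 4383, 4015 and 3508 CPM in infarction 1 to 3, against 1155, 901 and 1831 CPM in sham 1 to 3, and the protease inhibitor Timp1. In unmarked members Vim was at 3559, 3128 and 336 CPM in infarction 1 to 3, against 130, 331 and 289 CPM in sham 1 to 3, and was not called. Timp1 stood at 14.5, 161 and 1409 CPM, against 42.6, 19.0 and 19.9 CPM, and its groups overlapped. No A1-type gene of 3 tested was called, and S100a10 and Cd14 of 4 tested A2-type genes were higher. Both were also higher in the other barcodes, where S100a10 averaged 1346 CPM in infarction and 80.2 CPM in sham libraries. Without marked members, 1 of 4 tested A1-type genes was higher, beside 3.65% of all genes. No A2-type gene could be tested there, so the 2 lists cannot be compared without marked members.

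Immediate early genes were higher for 9 of 14 tested, and none was lower. Ier3, an early stress response gene, stood at 232, 264 and 205 CPM in infarction 1 to 3, against 59.2, 51.0 and 41.8 CPM in sham 1 to 3 (log2 2.32 ± 0.31, adjusted p 0.00651 by edgeR). Junb stood at 595, 809 and 694 CPM, against 313, 280 and 335 CPM. Without marked members 7 of 10 tested were higher. In the other barcodes Junb went the other way, averaging 902 CPM in infarction and 2054 CPM in sham libraries. Of the other stress groups, 3 of 14 metallothionein and antioxidant genes and 2 of 5 interferon genes were higher, beside 7.09% of all genes. Ifi27 stood at 1604, 607 and 1086 CPM in infarction 1 to 3, against 307, 180 and 193 CPM in sham 1 to 3. Of 11 heat shock genes 1, Cryab, was lower, and none of 13 nuclear respiratory chain genes was called. Without marked members, none of 12 metallothionein and antioxidant genes was called and 2 of 5 interferon genes were higher, beside 3.65% of all genes. Of 10 heat shock genes tested there, 1 was higher and none lower.

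The 10 highest and 10 lowest called genes included few of the genes above. The highest were Spp1, Cxcl1, Gpnmb, Lgals3, Ccl2, Ccl3, Plk3, Gfap, S100a10 and Ctsz. Spp1, the secreted protein osteopontin, stood at 218, 8109 and 13642 CPM in infarction 1 to 3, against 9.26, 0 and 5.10 CPM in sham 1 to 3. It averaged 14585 CPM in the other infarction barcodes and 30.8 CPM in the other sham barcodes. Lgals3, a lectin of activated phagocytes, stood at 247, 2542 and 3341 CPM, against 22.2, 21.99 and 26.01 CPM, with averages of 3574 CPM in the other infarction barcodes and 28.4 CPM in the other sham barcodes. The lowest were Ttr, Acta2, Des, Actg2, Cnn1, Rasl11a, Tagln, Aoc3, Mill1 and Gucy1a3. Tagln fell to 0, 8.25 and 15.6 CPM in infarction 1 to 3, against 3638, 2091 and 4441 CPM in sham 1 to 3, with averages of 3.68 CPM in the other infarction barcodes and 17946 CPM in the other sham barcodes. For these genes the other barcodes of the same libraries differed in the same direction, and their part in the result was not tested. Genes at 0 in all 3 infarction libraries included Acta2, Des, Actg2 and Cnn1, so no fold change is given for them.

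**Figure D4:**
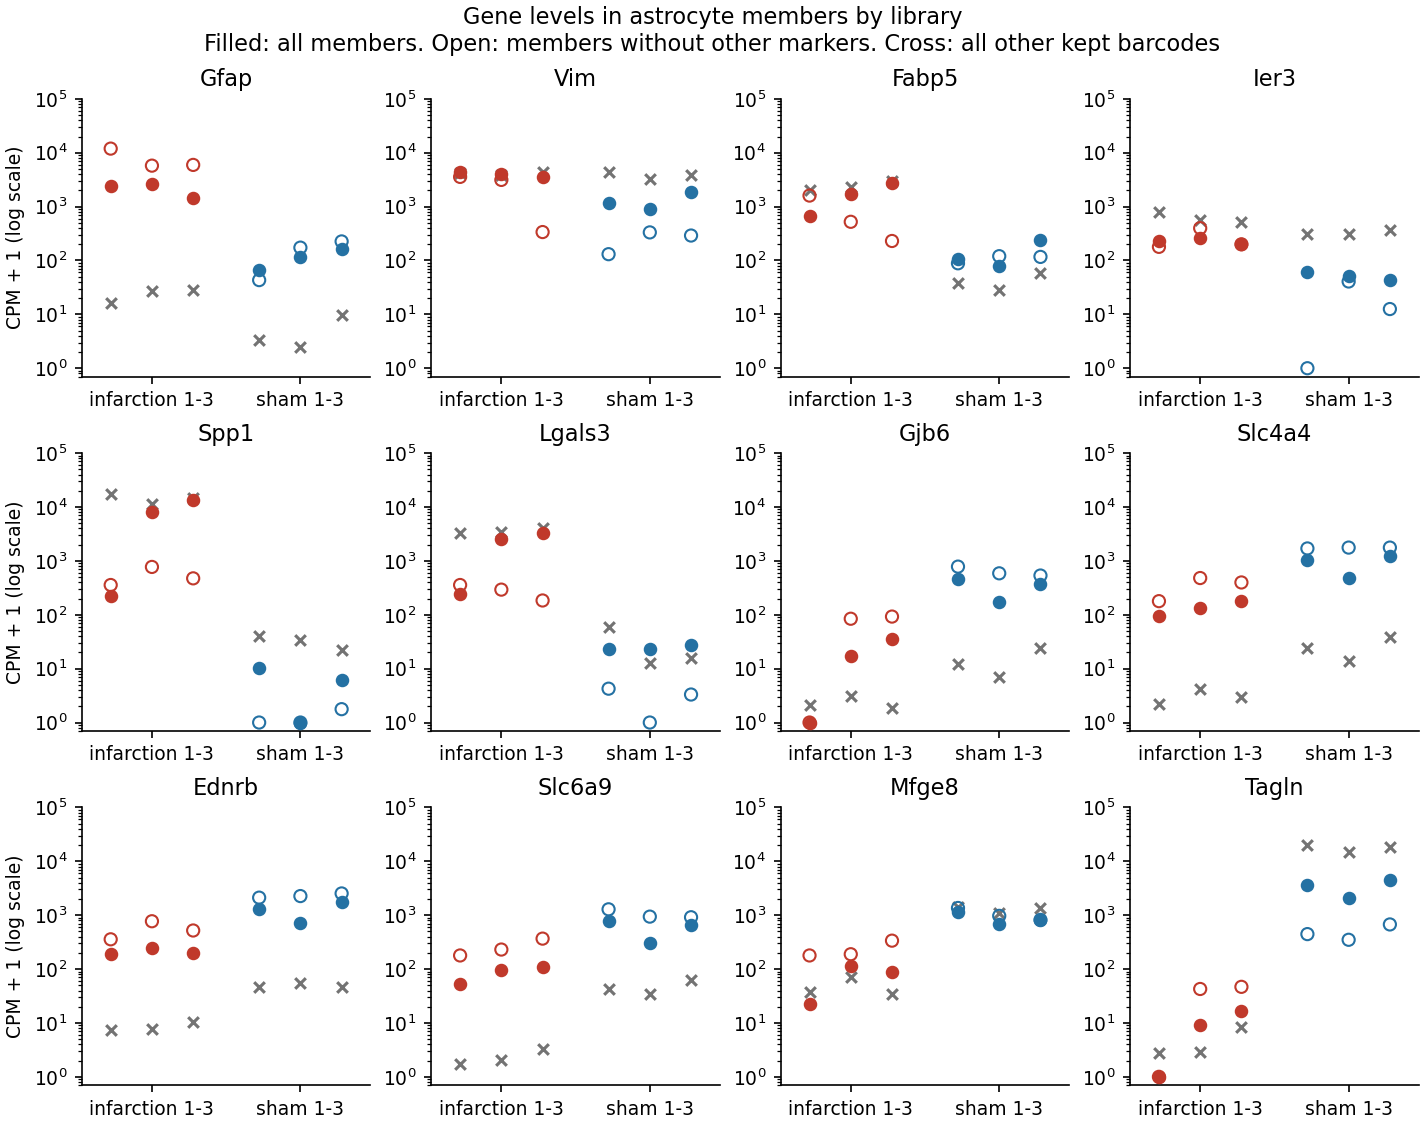
Levels of 12 genes as CPM + 1 on a log axis in infarction 1 to 3 (red, left) and sham 1 to 3 (blue, right), for all members (filled), unmarked members (open) and all other kept barcodes (crosses). Gfap is above sham in every infarction library, Gjb6, Slc4a4, Ednrb and Slc6a9 are below, and for Gfap, Spp1, Lgals3 and Tagln, among others, the crosses differ in the same direction.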

How the data were processed

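For each of 6 libraries the authors deposited a count matrix, whose values are raw UMI counts with no scaling. Per the submitters' processing notes these came from Cell Ranger 3.1.0 and CASAVA 1.8, with Seurat 2.3.4 also named. The genome build is not given in the sources used here. Of 25399 genes listed, 19105 were detected, and each of 121 symbols with several identifiers went to the identifier with the most UMIs. Barcodes under 500 UMIs, under 200 genes or over 20% mitochondrial UMIs were removed.

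The members, gene lists and tests were chosen with earlier results of these data known. Doublets were scored per library with Scrublet and left in, and removed only in an alternative, as were marked members. Sham members were clustered with scanpy 1.11.5 (15 components, 15 neighbours, Leiden resolution 0.8). Counts were summed per library and fitted with edgeR 4.0.16 (quasi-likelihood, robust, TMM, filterByExpr), with group as the only term for infarction and the library as a block for Gfap. Benjamini-Hochberg adjusted p under 0.05 made a call. DESeq2 1.42.0 was an alternative. Simulated counts were made for the infarction comparison, with 6080 genes. Of genes changed by 1, 2 and 3 log2 units, 2.04%, 63.0% and 89.6% were called. The simulation gave every gene the same dispersion and changed only the better-counted genes. These shares therefore do not give the power on the real sums.

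Named genes are list members by role, the 20 highest ratios in sham with at least 50 CPM, the 10 highest and 10 lowest called genes with at least 20 CPM and no overlap, and up to 4 genes per list with the smallest p. CPM in the text are raw, except between Gfap-high and Gfap-low members, where the TMM factors of the fit scale them. Log2 differences come from the fit. The ± beside them is the log2 difference, without sign, over the square root of the test's F. Log2 ratios over other barcodes added 5 CPM to both sides. Intervals cover counting error only. Motif searches used RefSeq promoters on GRCr8. Some of the genes that meet these rules are not reported here.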

Additional observations from a re-analysis of the deposited data

How the results depend on the processing

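The share of members was lower in infarction than in sham under every setting tried, with differences of -2.78 to -0.869 percentage points. Leaving out replicates gave differences from -2.68 to -0.869 points.

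For genes called after infarction, 421 higher and 365 lower, DESeq2 and the other size factors stayed within 1.5 times. With no filter on low counts 678 were higher and 641 lower. With the replicate block 36 were higher and 49 lower. Deviations of same-numbered libraries from their group means had correlations of -0.18, -0.01 and -0.03. These values cannot decide whether equal numbers share a source, because the share of marked members also differed between libraries. With at least 1500 UMIs 550 were lower. Some settings also removed whole libraries that kept too few members. With at least 4 of 6 markers 31 were higher and 19 lower, with infarction 3 alone (8 members, assumed to vary like the sham libraries) against sham. With at most 10% mitochondrial UMIs, which also removed infarction 1, 175 were lower. Settings added after seeing the data also removed infarction 1, and gave 159 higher and 62 lower without marked members and 1227 higher and 992 lower without ependymal-marked members. Removing infarction 1 alone gave 764 higher and 354 lower. Leaving out replicates gave 0 to 764 higher and 0 to 354 lower. The cause was not tested.

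For Gfap-high over Gfap-low members, with 0 called both ways, DESeq2 called 11 higher and 2 lower, and no filter called 88 higher and 89 lower. No value came from at least 4 of 6 markers, at most 10% mitochondrial UMIs, thinning, leaving out marked or ependymal-marked members, or leaving out replicates, because fewer than 2 libraries kept enough members.

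Of 87 genes named after infarction, 67 were called. At 4 of 6 markers, in those 8 barcodes of 1 library, the sign was opposite, from too little data to read, for Ccl2 (-6.19), Vim (-0.28), Hspb1 (0.75), Atf3 (-7.89), Ier3 (-7.40), Fosb (-6.28), Hmgb2 (-0.48), Pcna (-0.60), Mt1 (-0.63), Txnip (-0.91), Cox5a (-0.88) and Cox7c (-1.57). Signs turned at 10% mitochondrial UMIs for Irx5 (-3.06), Tm4sf1 (1.42) and Nqo1 (-0.53). Without marked members they turned for Irx5 (-0.79), Hspb1 (0.85), Stat2 (-0.85) and Cox5a (-0.33), and without ependymal-marked members for Irx5 (-1.75). Without infarction 1 they turned for Irx5 (-0.98) and Stat2 (-0.01), and without infarction 3 for RT1-T24-4 (-0.27) and Stat2 (-0.35). Leaving out replicates, Irx5 ranged up to 0.77, RT1-T24-4 to 1.03 and Stat2 to 0.79, each from its lowest value above (Irx5 -0.98). In the Gfap comparison Tm4sf1 turned with DESeq2 (0.018) and Zfp36 without doublets (0.062). Infarction members hold few UMIs, and low genes are beyond this depth.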

Other observations

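Hcrt, the orexin precursor known from hypothalamic neurons, was found in ependymal-like subcluster 1 at 2201 CPM, in 77.8% of its 36 members, and at 0 to 2.98 CPM in the astrocyte-rich subclusters 2, 4, 6 and 7. In subcluster 3, led by smooth muscle genes, it was at 377 CPM and in 22.2% of members. Mt3, a metallothionein of brain, was at 10285 CPM in subcluster 1. Both values come from members chosen by the rule and are given as a description.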
